A study of Mus musculus with 10 samples.

Results

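Solute carriers are the membrane proteins that move amino acids, sugars, ions, metals, vitamins and neurotransmitters into and out of cells and organelles. The genes described here were taken by symbol from a deposited table of RNA metabolic rates: every mouse gene named Slc, a family number, the letter a and a member number, apart from the mitochondrial family Slc25a. This gave 109 of the 8590 genes in the table, with 29 Slc25a genes left out. Of the 109, 106 carry carrier symbols from 36 families, and 3 (Slc7a6os, Slc9a3r1 and Slc9a3r2) match the pattern by name without being carriers; counts of family genes below include these 3.

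The rates came from cortical neurons dissociated at embryonic day 18 and kept in culture for 14 days, either wild type or Fmr1-KO, both listed under the strain FVB.129P2-Pde6b+ Tyrc-ch/AntJ. Fmr1 encodes FMRP, an RNA-binding protein that is lost in fragile X syndrome; the labels do not describe the allele or say how many embryos went into a culture. New RNA was marked with 200 µM 5-ethynyluridine (5-EU, a uridine analogue) for 20 or 60 min, captured and sequenced beside input RNA and a capture of unlabelled RNA, with labelled fly RNA and unlabelled yeast RNA added at 10% by weight each. Each genotype had 1 rate estimate per labelling time, so 4 labelled libraries were compared, 2 per genotype, and the labels do not say that they came from separate cultures. Where labelling time is not a block in the fit, the p-values below measure only the spread between labelling times. With it as a block, that spread is removed, and they measure how much the genotype difference varied between the times.

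An mRNA level is set by how fast the transcript is made, how fast its introns are removed and how fast the mature form is degraded. INSPEcT estimates these synthesis, processing and degradation rates from new and total RNA. The sources used here give no time unit, so rates are printed in the units of the deposited table, and the number of reads behind each rate is unknown. In neurons, solute carriers fill synaptic vesicles with transmitter, clear it from the synapse, set chloride and pH, and supply glucose, lactate, amino acids and trace metals, while glial carriers recycle glutamine and buffer ions. RNA was taken from whole cultures, in which fewer cells of a type and less RNA per cell cannot be told apart.

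The upstream sequences of a pair of metal exporters are shown because their synthesis rates were nearly the same in both genotypes, while the degradation rate of Slc30a10 rose and its processing rates did not overlap between genotypes. Slc30a1 moves zinc out of the cell, and Slc30a10 moves manganese out. Each sequence is the 250 bases before the RefSeq start on GRCm38.p6, plus strand, with the core of the metal response element (TGCACNC or TGCGCNC, searched on both strands) in capitals.
Slc30a1, chr1:191906531-191906780: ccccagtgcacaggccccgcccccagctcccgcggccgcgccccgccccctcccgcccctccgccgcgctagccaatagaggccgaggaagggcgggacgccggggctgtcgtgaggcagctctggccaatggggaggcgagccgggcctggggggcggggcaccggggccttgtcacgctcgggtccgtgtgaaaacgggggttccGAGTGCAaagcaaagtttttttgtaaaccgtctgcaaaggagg
Slc30a10, chr1:185454598-185454847: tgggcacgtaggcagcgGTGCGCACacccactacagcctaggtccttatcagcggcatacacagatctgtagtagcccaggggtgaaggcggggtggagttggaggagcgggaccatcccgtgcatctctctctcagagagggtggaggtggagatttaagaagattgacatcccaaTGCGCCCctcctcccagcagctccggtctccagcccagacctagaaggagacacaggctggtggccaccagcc

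The Slc30a1 window held 1 match and the Slc30a10 window 3, of which 2 overlap on opposite strands. RefSeq promoters matched 86 of the 109 genes by symbol. At least 1 match was found in 37 of their 116 promoters (31.9%) and in 7031 of all 32841 mouse promoters of the same length (21.4%). At least 2 matches were found in 5.17% and 5.18%, and at least 3 in 0.862% and 1.26%; a match is a run of letters and not a measured binding site.

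Fmr1 itself was checked first. Its degradation rate was 0.0774 and 0.0672 at 20 and 60 min in wild type, compared with 2.58 and 2.66 in knockout neurons, and its synthesis rate was 0.810 and 0.692 against 2.06 and 1.56. The ratio of synthesis to degradation, which is the level the rates imply, was therefore 10.5 and 10.3 in wild type, compared with 0.800 and 0.586 in knockout neurons. Across all genes tested the median degradation rate differed too: centring each library on its own median removed a shift (knockout minus wild type) of 0.86 on the log2 scale for degradation, -0.35 for processing and -0.01 for synthesis. Of the marker lists, 1 of 5 neuron, 2 of 6 excitatory, 3 of 6 inhibitory, 4 of 8 astrocyte, 5 of 8 oligodendrocyte lineage, 0 of 6 microglia and 1 of 6 vascular markers were in the table, so the labelled cell type could be checked only in part. The implied level of the neuron marker Rbfox3 was 34.3 in both wild-type libraries and 10.8 and 5.44 in the knockout. The implied levels of the inhibitory markers summed to 69.1 in both wild-type libraries and to 21.3 and 18.2 in the knockout, but not over the same genes: Slc32a1 had 38.8 in wild type, compared with 14.0 and 10.6, Dlx1 had 5.96 against 7.32 and 7.62, and Gad2 had 24.4 and no knockout rate. The excitatory markers summed to 36.6 in both and to 62.0 and 54.2, and their members went opposite ways, Neurod6 from 30.1 to 60.7 and 52.3 and Slc17a6 from 6.57 to 1.30 and 1.99. The astrocyte markers have no sums over the same genes, since Sox9 had no wild-type rate, Aqp4 no knockout rate and Gja1 no knockout rate at 60 min. Aldh1l1 had 39.3 in wild type, compared with 34.1 and 29.9, and Gja1 had 23.6 against 148 at 20 min. Implied levels of the oligodendrocyte lineage markers summed to 64.3 and 64.5 and to 61.4 and 81.3, with a ratio for all 5 in wild type but only 1 and 2 of them in the knockout, and Dcn, the vascular marker, had no knockout rate. Their part in the results below was not tested.

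Rates were missing mostly in the knockout. A degradation rate was listed in all 4 libraries for 80 of the 109 genes (73.4%), compared with 66.5% of all genes in the table. Both wild-type libraries but neither knockout library had one for 17 genes, which is 16.5% of the 103 with both wild-type rates, against 19.5% of all genes. These 17 were the amino acid carriers Slc1a6, Slc38a2, Slc38a7, Slc7a3 and Slc7a11, the taurine carrier Slc6a6, the proline carrier Slc6a7, the glucose carrier Slc2a1, the vesicular zinc carrier Slc30a3, the bicarbonate carriers Slc4a2 and Slc4a10, and Slc17a5, Slc20a2, Slc35a4, Slc37a4, Slc44a2 and Slc8a3.

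Several of the carriers without a knockout rate are central to neurons and glia. Slc2a1, the glucose carrier of the blood-brain barrier and glia, had degradation rates of 0.167 and 0.226 at 20 and 60 min in wild type. Slc6a6 had 0.0762 and 0.0802, Slc30a3 had 0.0554 and 0.0130, and Slc4a10, which brings bicarbonate into neurons, had 0.0359 and 0.0325. Slc38a2, a glutamine and alanine carrier, had 0.140 and 0.326, so its wild-type estimates differed more than those of Slc6a6 or Slc4a10. Slc12a2, the chloride importer NKCC1, had 0.261 and 0.253 in wild type and a single knockout rate of 0.0403 at 60 min. Slc12a9 and Slc7a4 showed the reverse pattern, with rates in both knockout libraries and in neither wild-type library, and Slc5a3 and Slc9a7 had none. The plot of rate availability shows the classes these genes fall in.

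**Figure D1:**
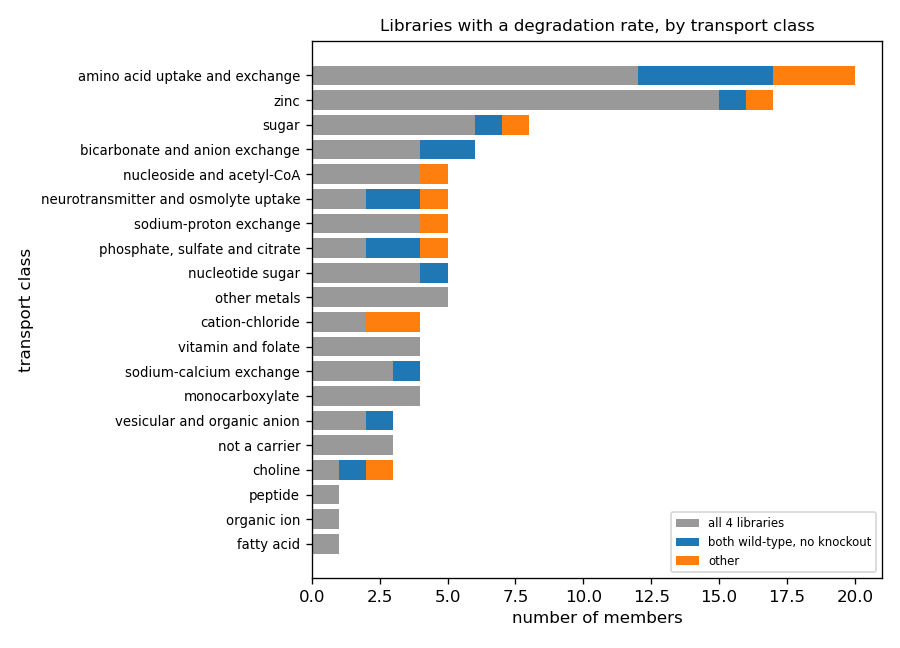
Number of solute carrier genes (x axis) in each transport class (y axis) with a degradation rate in all 4 labelled libraries (grey), in both wild-type and no knockout libraries (blue), or in another combination (orange). Amino acid carriers include 5 of the 17 genes without a knockout rate, and zinc carriers 1.

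In wild type, the carriers spanned a wide range of stability. Degradation rates ran from 0.0330 to 0.705 at 20 min (median 0.0886, 103 genes) and from 0.0128 to 1.13 at 60 min (median 0.101, 104 genes), compared with medians of 0.111 at both times over all genes. The fastest were the zinc exporter Slc30a1 (0.705 and 1.12), the thiamine carrier Slc19a2 (0.462 and 1.13) and the lactate carrier Slc16a1 (0.332 and 0.646). Slc16a6 (0.357 and 0.564) and the lysosomal histidine and peptide carrier Slc15a4 (0.359 and 0.390) followed. Neighbours in this order overlapped over the labelling times, and Slc30a1 lay above Slc16a1, Slc16a6 and Slc15a4 at both. Genes at the slow end included the arginine and lysine carrier Slc7a3 (0.0396 and 0.0163), Slc38a10 (0.0395 and 0.0211), Slc38a3 (0.0388 and 0.0224), Slc1a6 (0.0330 and 0.0352) and Slc30a3 (0.0554 and 0.0130), which also overlap.

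The wild-type libraries do not give independent estimates of every rate. The ratio of synthesis to degradation was the same at both labelling times, within 0.001 on the log2 scale, for 97 of 103 of these genes in wild type and for 0 of 82 in Fmr1-KO neurons. The synthesis to processing ratio was shared for 97 of 97 in wild type and 6 of 79 in the knockout. For those wild-type genes, the 20 and 60 min values of each rate therefore differ by one common factor per gene.

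The first comparison asks whether loss of Fmr1 changes how fast carrier mRNAs are degraded. Of the 80 family genes with a rate in every labelled library (77 of them carriers), 18 had a higher and 1 a lower degradation rate in the knockout at an adjusted p under 0.05 (limma, two-sided, adjusted over 5716 genes). These 19 are 23.8% of the 80, beside 23.1% of all genes tested (20.5% higher and 2.57% lower), so the share of the family called was close to the background. Among the largest rises were those of the copper carrier gene Slc31a2, the amino acid carriers Slc38a10 and Slc38a3 and the monocarboxylate family gene Slc16a14, and the single fall was in the endosomal proton exchanger Slc9a9. The median log2 change was 0.87 over the 80 and 0.65 over all genes tested, and 54 of the 80 changes were above 0 (3891 of all 5716). An unadjusted p under 0.05 was reached by 39 of the 80 and by 43.1% of all genes tested. Knockout rates lay wholly above the wild-type rates for 47 of the 80 (52.6% of all genes tested) and wholly below for 12 (16.5%).

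Most of these calls were lost when the shift between the genotypes was removed. After each library was centred on its median, the median change of the 80 genes was 0.01 and that of all genes -0.20, and Slc31a2 was the only family gene called (1.61% of all genes tested, 0.560% higher and 1.05% lower). With labelling time as a replicate block the count was 41, with 33 higher and 8 lower (48% of all genes, 38.2% higher and 9.76% lower), and all 19 were among them. With the block and centring together it was 30, with 8 higher and 22 lower (36.2%, 13.9% and 22.4%), of which 9 were among the 19. It was 8 with quantile normalization (10.4%), 30 with a pseudocount (33.1%), 25 with a variance trend (28.1%) and 19 of 54 once genes with low rates were left out (32.1%). In that order, these calls shared 6, 19, 19 and 16 genes with the first 19. The authors' deposited table called 34 of 86 family genes, 30 higher and 4 lower (36.3% of its genes, 29.2% higher and 7.09% lower). The count was lower without any 1 of the libraries: by limma it was 0 without the wild-type 60 min library (38 with an unadjusted p under 0.05; 0.0175% of all genes were called) and 13 without the wild-type 20 min library (19.5% of all genes). It was 1 without the knockout 20 min library (Slc31a2; 2.62% of all genes) and 1 without the knockout 60 min library (Slc7a1; 2.26%). The changes themselves stayed large over these 4 fits, from 3.72 to 4.24 for Slc31a2 and from 3.02 to 3.92 for Slc38a10, and the median of the 80 ran from 0.52 to 0.95.

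**Figure D2:**
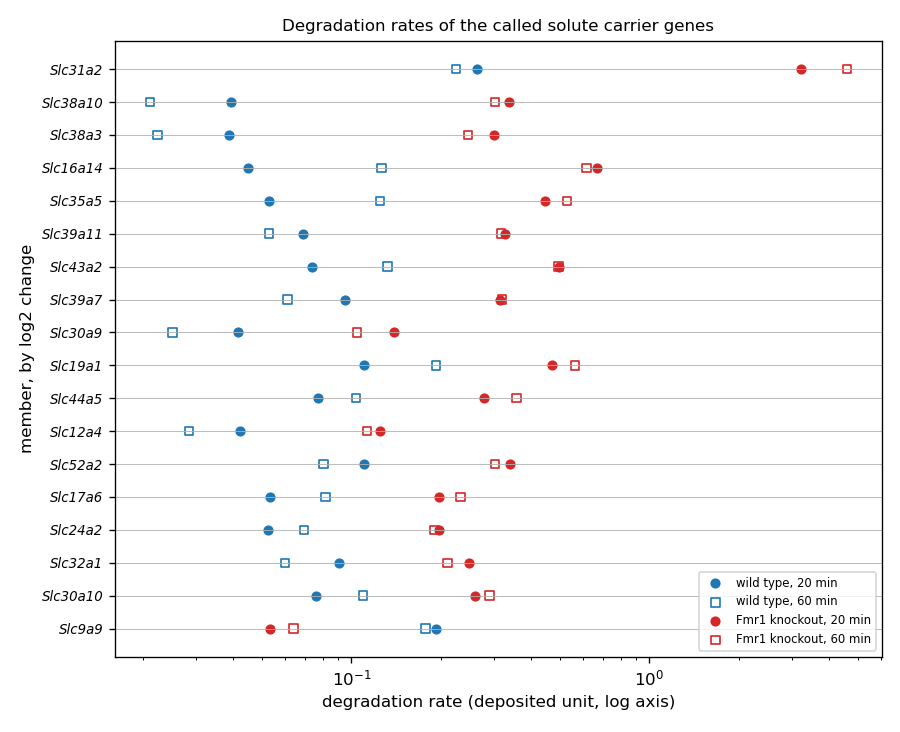
Degradation rate in the deposited unit (log x axis) of 18 of the 19 carrier genes called, ordered by log2 change (y axis), in wild type (blue) and Fmr1 knockout (red) at 20 min (filled circles) and 60 min (open squares). For Slc9a9 both red symbols lie to the left of both blue symbols, and for the other genes shown both lie to the right.

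Among the metal carriers, copper stood at the top of the list. Slc31a2 (chr4:62262562-62298411, plus strand), a relative of the copper importer that acts in intracellular membranes, had degradation rates of 0.264 and 0.224 at 20 and 60 min in wild type, compared with 3.22 and 4.60 in knockout neurons. Both knockout values exceeded both wild-type values, and Slc31a2 had the highest knockout rate of the 109 genes at each time. Its log2 change was 3.98 (SE 0.366, adjusted p = 0.0235), a 15.8-fold rise, and 3.13 after centring (adjusted p = 0.0497). Slc31a1, the high-affinity copper importer of the plasma membrane, had 0.105 and 0.103 against 0.149 and 0.134, with a log2 change of 0.44 that did not pass (adjusted p = 0.335). The other metals class, which also holds the iron carrier Slc11a2 and the magnesium carriers Slc41a1 and Slc41a2, had 1 of 5 genes called, beside 23.1% of all genes tested.

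Of 15 zinc-family genes tested, 4 rose and none fell, beside 20.5% higher and 2.57% lower of all genes tested. Slc39a11 (chr11:113244853-113650079, minus strand) had rates of 0.0688 and 0.0529 in wild type, compared with 0.328 and 0.318 in knockout neurons (log2 change 2.42, SE 0.337, adjusted p = 0.0235). Slc39a7, which releases zinc from the endoplasmic reticulum, rose by 2.06 on the log2 scale, and Slc30a9, which moves zinc out of mitochondria, by 1.89. Slc30a10 (chr1:185454848-185468762, plus strand), the manganese exporter whose upstream sequence is shown above, had 0.0760 and 0.109 against 0.260 and 0.290 (log2 change 1.59, SE 0.362, adjusted p = 0.0459).

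Other zinc carriers had lower knockout values that did not pass in this fit. Slc39a10, an importer of the plasma membrane, had 0.123 and 0.126 in wild type, compared with 0.0376 and 0.00780 in knockout neurons (log2 change -2.87, adjusted p = 0.0712, 0.0297 with the block). Slc30a5, which loads zinc into the secretory pathway, had 0.213 and 0.376 against 0.0275 and 0.0882 (log2 change -2.52, adjusted p = 0.0666, 0.0143 with the block). For both, all knockout values lay below all wild-type values. Both passed in the authors' deposited table, at -1.88 for Slc39a10 (adjusted p = 0.0337) and -2.48 for Slc30a5 (adjusted p = 0.0399). Slc30a1 (chr1:191906767-191913247, plus strand), the fastest degraded in wild type at 20 min, had 0.705 and 1.12 against 0.556 and 0.967, ranges that overlap (log2 change -0.28, adjusted p = 0.684). With the block and centring together, Slc30a1 passed as lower (log2 change -1.13, adjusted p = 0.0454), as did 22.4% of all genes tested. The median of the zinc families was 0.75, and -0.10 after centring.

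Amino acid carriers had 3 of 12 tested genes called, all higher (20.5% of all genes tested were), and a median of -0.26 (-1.12 after centring). Slc38a10 (chr11:120103960-120151346, minus strand), a sodium-coupled neutral amino acid carrier, had degradation rates of 0.0395 and 0.0211 in wild type, compared with 0.337 and 0.304 in knockout neurons. It rose 11.1-fold (log2 change 3.47, SE 0.440, adjusted p = 0.0235), with a log2 change of 2.61 after centring (adjusted p = 0.0517). Slc38a3 (chr9:107650634-107669530, minus strand), which exports glutamine from astrocytes, had 0.0388 and 0.0224 against 0.300 and 0.246 and rose 9.22-fold (log2 change 3.21, SE 0.423, adjusted p = 0.0235), with 2.35 after centring (adjusted p = 0.0531). Both were among the slowest degraded carriers in wild type, and neither was in the knockout, where the medians were 0.154 and 0.152. The wild-type rates of both genes lay below 0.0431, the pseudocount taken at the 10th percentile of rates. With that pseudocount the log2 changes were smaller, 2.32 for Slc38a10 and 2.11 for Slc38a3, and both still passed.

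Also called was Slc43a2 (chr11:75531694-75577575, plus strand), a sodium-independent carrier of large neutral amino acids, which had 0.0736 and 0.132 against 0.496 and 0.494 (log2 change 2.33, SE 0.423, adjusted p = 0.0307). Slc38a1, a glutamine importer of neurons and a paralog of Slc38a3, had 0.0713 and 0.111 against 0.0627 and 0.0848 (log2 change -0.29, adjusted p = 0.623). It passed as lower with the block and centring together (log2 change -1.14, adjusted p = 0.0441). The neuronal glutamate carrier Slc1a1 had 0.0864 and 0.0660 against 0.0464 and 0.0135, with both knockout values below both wild-type values. Its log2 change of -1.59 did not pass (SE 0.690, adjusted p = 0.155), and did with the block (adjusted p = 0.0471). That change ran from -2.48 to -0.70 with 1 library left out. Slc7a1, the main arginine and lysine importer, had the lowest change of the 80, -3.23, but its knockout rates of 0.00244 and 0.0763 were far apart (SE 1.73, adjusted p = 0.226). In the authors' deposited table the change of Slc7a1 was -0.46 (adjusted p = 0.535).

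The single fall was in a carrier that exchanges sodium for protons. Slc9a9 (chr9:94669909-95230445, plus strand), which sets the pH of recycling endosomes, had 0.192 and 0.178 in wild type, compared with 0.0534 and 0.0640 in knockout neurons, and fell by 1.66 on the log2 scale (SE 0.326, adjusted p = 0.0352). After centring its change was -2.51, with an adjusted p of 0.0502. None of the 4 bicarbonate and anion exchangers tested was called (23.1% of all genes were), and Slc4a3 and Slc4a8 were with the block (48% of all genes); the chloride-bicarbonate exchanger Slc4a3 had 0.0616 and 0.0136 against 0.228 and 0.174 (log2 change 2.78, adjusted p = 0.0731, 0.0219 with the block).

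Of 2 cation-chloride genes tested, 1 was called, and it rose (20.5% of all genes tested did). Slc12a4 (chr8:105943590-105966097, minus strand), the potassium-chloride exporter KCC1, had 0.0423 and 0.0286 against 0.124 and 0.113 and rose by 1.77 on the log2 scale (SE 0.368, adjusted p = 0.0387). The neuronal exporter gene Slc12a5 was not analysed here, and nor were Slc1a2, Slc1a3, Slc17a7, Slc3a2, Slc4a4, Slc7a5 and Slc8a1.

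The changes of fuel carriers were spread widely within families. Of 4 monocarboxylate genes tested, 1 was called, and it rose (20.5% of all genes tested did). In the monocarboxylate family, Slc16a14 (chr1:84905898-84935134, minus strand) had 0.0449 and 0.126 in wild type, compared with 0.665 and 0.615 in knockout neurons (log2 change 3.09, SE 0.595, adjusted p = 0.0340). Slc16a7 (chr10:125219270-125389465, minus strand), MCT2, the lactate importer of neurons, had 0.0704 and 0.114 against 0.00543 and 0.0333 (log2 change -2.74, SE 0.970, adjusted p = 0.105, 0.0248 with the block). In the authors' deposited table its change was -1.13 and did not pass (adjusted p = 0.168). Slc16a1, MCT1, had overlapping rates of 0.332 and 0.646 against 0.220 and 0.513 (log2 change -0.46, adjusted p = 0.597). With the block and centring together, Slc16a1 passed as lower (log2 change -1.32, adjusted p = 0.0384). None of the 6 sugar-class genes tested was called, beside 23.1% of all genes. With the block 2 were called higher and 1 lower (38.2% and 9.76% of all genes). The neuronal glucose carrier Slc2a3 had 0.0872 and 0.122 against 0.179 and 0.208, which do not overlap (log2 change 0.90, adjusted p = 0.132, and a log2 change of 0.05 after centring).

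Both vesicular carriers tested, which are also the markers Slc17a6 and Slc32a1 of the lists above, rose, beside 20.5% of all genes tested. Slc17a6 (chr7:51622006-51671119, plus strand), which fills vesicles with glutamate, had 0.0532 and 0.0818 against 0.197 and 0.232 (log2 change 1.70, SE 0.385, adjusted p = 0.0457). Slc32a1 (chr2:158610767-158615748, plus strand), which fills vesicles with GABA and glycine, had 0.0911 and 0.0599 against 0.248 and 0.210 (log2 change 1.63, SE 0.381, adjusted p = 0.0482). After centring the changes were 0.84 and 0.77, and neither passed (adjusted p = 0.181 and 0.221, and 0.0801 and 0.102 with the block). Of 3 calcium exchangers tested, 1 was called, beside 23.1% of all genes tested. Slc24a2, which exchanges sodium for calcium and potassium in neurons, rose by 1.68 on the log2 scale. Its relative Slc24a4 had the same rounded change without passing (adjusted p = 0.0562). The creatine carrier Slc6a8 (log2 change 1.90, adjusted p = 0.0644) and the neutral amino acid carrier Slc6a15 (1.56, adjusted p = 0.0504) were the 2 genes of family 6 tested. Slc24a4, Slc6a8 and Slc6a15 passed with the block. They also passed in the authors' deposited table (adjusted p = 0.0235, 0.0136 and 0.0235).

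Other genes were called in several smaller classes. These were 1 of 4 nucleotide sugar genes tested, 2 of 4 vitamin genes and the 1 choline gene, all higher (20.5% of all genes tested were). The nucleotide sugar family gene Slc35a5 (chr16:45139573-45158706, minus strand) had 0.0527 and 0.125 against 0.445 and 0.529 (log2 change 2.58, SE 0.530, adjusted p = 0.0377). The folate carrier Slc19a1 and the choline-like carrier Slc44a5 rose by 1.82 each on the log2 scale, and the riboflavin carrier Slc52a2 by 1.77. Of the 3 genes that are not carriers, none was called (23.1% of all genes were): Slc9a3r2, a scaffold of Slc9a3, had a log2 change of 2.17 (adjusted p = 0.0687, 0.0241 with the block) and Slc7a6os of -1.49 (adjusted p = 0.0904, 0.0211 with the block). Over the 19 carrier classes, 16 had a median above 0, and 10 after centring. Some classes held only 1 or 2 tested genes, and the median of all genes tested was 0.65, and -0.20 after centring.

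**Figure D3:**
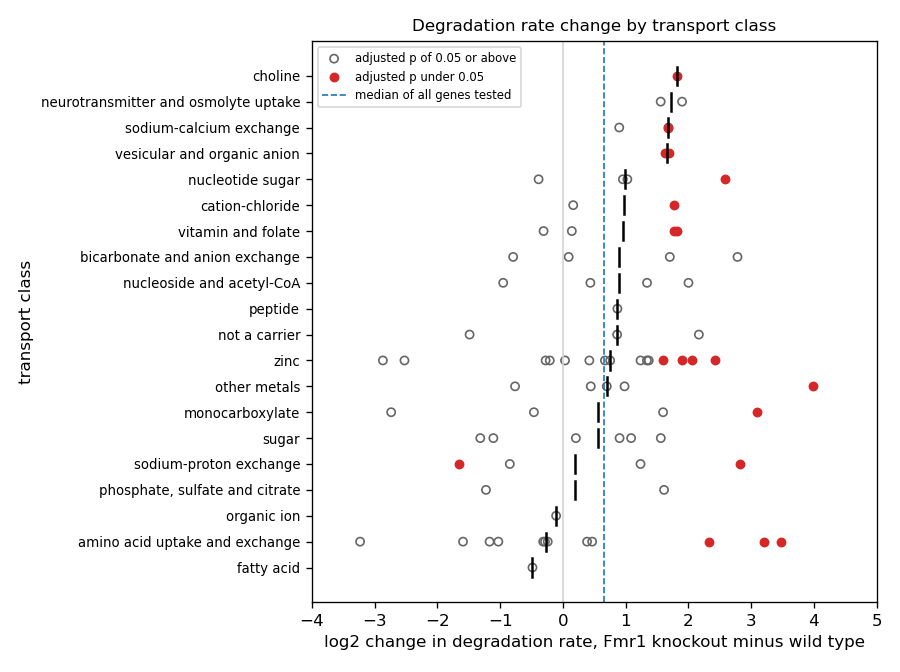
Log2 change in degradation rate, Fmr1 knockout minus wild type (x axis), of the 80 genes tested, by transport class (y axis). Filled red points have an adjusted p under 0.05, black bars are class medians, and the dashed line is the median of all genes tested (0.65); the points of most classes spread over both sides of that line.

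The level that the rates imply was lower for most genes. The ratio of synthesis to degradation was lower in the knockout at both labelling times for 55 of 80 genes (68.8%, beside 67.5% of 5704 genes), with medians of -0.77 at 20 min and -0.67 at 60 min on the log2 scale. For Slc31a2 it was 2.42 in both wild-type libraries and 0.269 and 0.409 in the knockout, and for Slc38a10 it was 27.3 against 3.34 and 1.42. For Slc9a9 it was 2.79 in both wild-type libraries and 8.40 and 7.53 in the knockout, and for Slc1a1 28.5 against 55.7 and 120. These ratios use the same rates as the comparison above and are not a second measurement.

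The second comparison is of synthesis. No family gene of 81 passed in limma (0% of 5794 genes tested), and none had an unadjusted p under 0.05 (18 of all genes did, 0.311%); with the block 0 passed and 2 had an unadjusted p under 0.05, and 0 of 87 passed in the authors' deposited table. The median log2 change was 0.02 for the 81 and -0.03 for all genes. Knockout values lay wholly above wild type for 6 genes (8.92% of all genes tested) and wholly below for 3 (9.20%). Changes ran from -0.83 for the anion exchanger Slc26a6 to 1.12 for Slc31a2, and these 2 and Slc35a3, a carrier of UDP-N-acetylglucosamine into the Golgi, had the smallest unadjusted p. With 1 library left out, the changes ran from -1.60 to -0.05 for Slc26a6, 0.56 to 1.68 for Slc31a2 and 0.36 to 1.69 for Slc35a3. Slc31a2 had synthesis rates of 0.639 and 0.542 in wild type, compared with 0.867 and 1.88 in knockout neurons, which do not overlap (unadjusted p = 0.0828). Slc35a3 had 0.267 and 0.670 against 0.878 and 0.845 (log2 change 1.03, unadjusted p = 0.126), and Slc26a6 had 0.623 and 0.213 against 0.230 and 0.184.

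Synthesis rates of both vesicular carriers and of both metal exporters whose upstream sequences are shown did not differ detectably between genotypes. Slc32a1 had synthesis rates of 3.54 and 2.33 in wild type, compared with 3.47 and 2.23 in knockout neurons, and Slc17a6 had 0.350 and 0.538 against 0.255 and 0.463. Slc30a1 had 10.1 and 16.1 against 9.10 and 15.2, and Slc30a10 had 0.342 and 0.491 against 0.359 and 0.481. In each of these 4 genes the genotypes overlapped, with log2 changes of -0.04, -0.34, -0.12 and 0.02. The plot of synthesis against degradation changes shows all 80 genes with both.

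**Figure D4:**
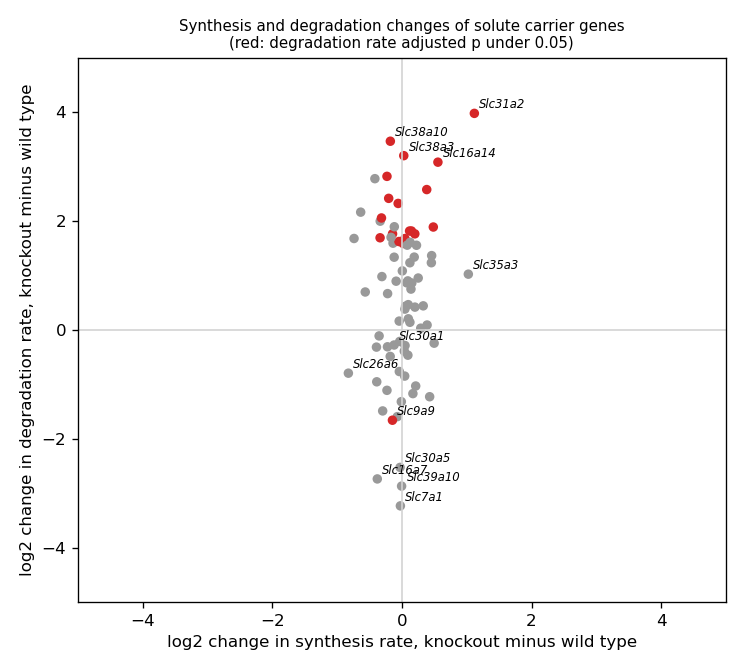
Log2 change in synthesis rate (x axis) against log2 change in degradation rate (y axis), knockout minus wild type, on equal scales for the 80 genes with both; red points have an adjusted p under 0.05 for degradation. Synthesis changes lie between -0.83 and 1.12 and degradation changes between -3.23 and 3.98.

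The last comparison is of processing, the rate at which unspliced RNA is turned into mature RNA. No family gene of 77 passed in limma (0% of 5082 genes), 12 had an unadjusted p under 0.05 (15.4% of all genes did), and 0 of 83 passed in the authors' deposited table. The median log2 change was -0.35 for the 77 and -0.36 for all genes, close to the shift between libraries, and 25 changes were above 0 (1521 of all 5082). Knockout values lay wholly above wild type for 10 genes (11.5% of all genes tested) and wholly below for 20 (35.1%). With labelling time as a block, 18 passed, 5 higher and 13 lower (25.6% of all genes, 6.26% higher and 19.3% lower). With the block and centring 14 passed, 5 higher and 9 lower (13.5%, 7.14% and 6.40%). By limma with no block, 3 passed without the knockout 20 min library (Slc12a4, Slc30a10 and Slc4a3; 1.87% of all genes), 1 without the knockout 60 min library (Slc12a4; 1.12%), and 0 without the wild-type 20 or 60 min library (0.118% and 0.0197%), where 8 and 14 had an unadjusted p under 0.05.

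The processing changes with the smallest p were in chloride, manganese and lactate carriers. Slc12a4 had processing rates of 17.9 and 12.1 in wild type, compared with 1.32 and 0.725 in knockout neurons, all knockout values below all wild-type values (log2 change -3.91, SE 0.504, adjusted p = 0.101, 0.00752 with the block and 0.0271 with the block and centring). Slc30a10 had 1.88 and 2.70 against 17.7 and 21.9, with no overlap in the other direction (log2 change 3.13, SE 0.437, adjusted p = 0.102, 0.00789 with the block). Slc16a7 had the fastest processing of the carriers in wild type, 80.3 and 130.0, against 18.04 and 28.1 (log2 change -2.18, SE 0.488, adjusted p = 0.156, 0.00953 with the block). The anion exchanger Slc4a3 had a change of similar size, -3.15, but its rates of 6.11 and 1.35 against 2.54 and 0.0411 overlap (SE 1.95, adjusted p = 0.493), and its change was -0.17 without the knockout 60 min library and -6.13 without the knockout 20 min one.

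The vesicular carriers, which shared a direction in degradation, had processing changes of opposite sign. Slc17a6 had 13.4 and 20.6 in wild type, and 25.97 and 45.98 in knockout neurons (log2 change 1.06, adjusted p = 0.388, 0.0350 with the block). Slc32a1 had 26.3 and 17.3 against 7.41 and 4.52 (log2 change -1.88, adjusted p = 0.182, 0.0113 with the block). The difference between the genes was not tested. The other 3 higher genes with the block were the vitamin carrier Slc5a6 (2.19 on the log2 scale), the nucleoside carrier Slc29a2 (1.63) and the zinc importer Slc39a1 (1.57). Beside Slc12a4, Slc16a7 and Slc32a1, the 13 lower genes included Slc29a4, Slc2a3, Slc30a6, Slc35a1, Slc35a5, Slc4a8, Slc52a2, Slc9a3r2 and Slc9a9, with log2 changes from -2.04 for Slc9a3r2 to -0.88 for Slc2a3.

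**Figure D5:**
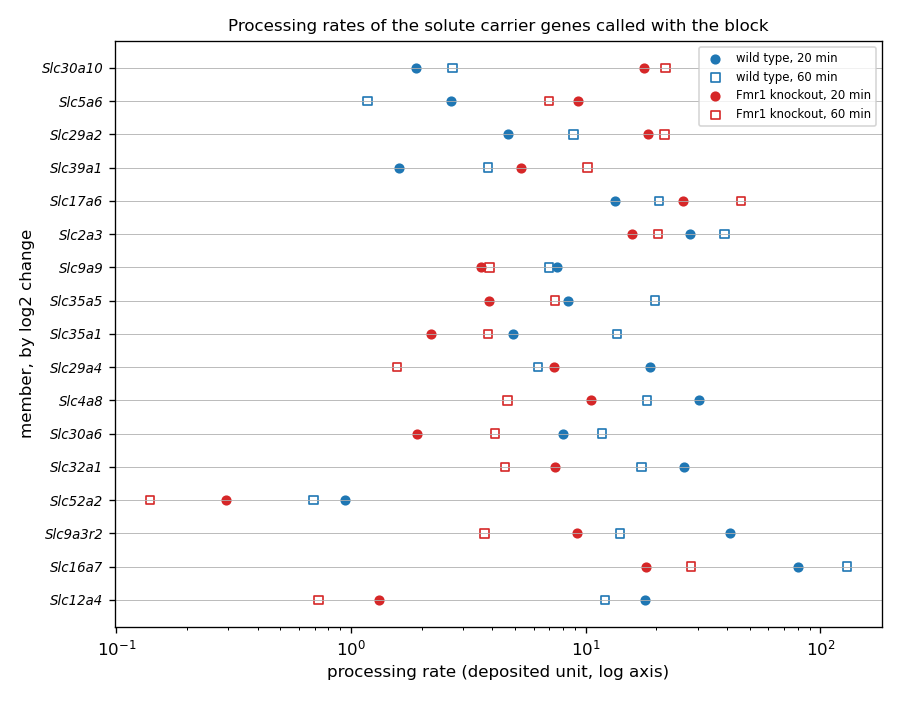
Processing rate in the deposited unit (log x axis) of 17 of the 18 carrier-family genes called with labelling time as a block, ordered by log2 change (y axis), in wild type (blue) and Fmr1 knockout (red) at 20 min (filled circles) and 60 min (open squares). Slc30a10 is at the top with a log2 change of 3.13 and Slc12a4 at the bottom with -3.91; over all 4 libraries none of the 18 passed without the block.

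Slc30a10 was higher in the knockout in both degradation and processing, and Slc12a4 was higher in degradation and lower in processing, where the processing change of each passed with the block and, over all 4 libraries, not without it. The degradation changes of Slc30a10 and Slc12a4 were 0.73 and 0.91 after centring and no longer passed (adjusted p = 0.201 and 0.163, and 0.102 and 0.0770 with the block and centring). Neither differed detectably in synthesis: Slc12a4 had synthesis rates of 0.281 and 0.190 in wild type, compared with 0.245 and 0.179 in knockout neurons (log2 change -0.14, SE 0.441), and the change of Slc30a10 was 0.02 (SE 0.432).

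Partners of carriers and carriers with other symbols were read in the same fit. Of 22 partner genes (sodium pump subunits, chaperones and regulatory kinases), 13 were in the table and 10 were tested for degradation, of which 3 rose and 1 fell (beside 20.5% and 2.57% of all genes), with a median of 1.05, and 0.20 after centring. Chp1, a calcium-binding protein, had 0.0542 and 0.0610 in wild type, compared with 0.266 and 0.240 in knockout neurons (log2 change 2.14, adjusted p = 0.0246). Wnk2, a kinase of the pathway that regulates chloride carriers, rose by 3.18 on the log2 scale, the sodium pump subunit gene Atp1b3 rose by 1.99, and Lrrc8a, a subunit of the volume-regulated anion channel, fell by 1.86. Of 23 carriers with other symbols, 17 were in the table and 9 were tested, with a median of 1.71, and 0.85 after centring. In the fit without centring, 5 rose and 1 fell, again beside 20.5% and 2.57% of all genes: Sv2c (4.44), Mfsd10 (4.48), Tmem163 (3.12), Spns2 (1.92) and Mfsd12 (1.71) rose and Mfsd6 (-1.64) fell. Synaptic vesicle protein Sv2c had degradation rates of 0.0686 and 0.0501 against 1.34 and 1.21.

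Gene structure was set beside the rates as a description. Across the 80 family genes, degradation rate in wild type was lower in genes with more introns, with Spearman's rho of -0.365 at 20 min and -0.539 at 60 min, and rho was -0.436 and -0.410 across all 5549 genes with a coding sequence. The log2 change in degradation rate had a rho of 0.207 with GC content at the last position of codons, and 0.200 across all genes. Wild-type processing rate had a rho of 0.234 at 20 min and 0.225 at 60 min with total intron length across the 77 family genes tested for processing, and of 0.207 and 0.242 across 4998 genes. Genes in one library share its depth and scaling and are not independent replicates, so no p is given.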

How the data were processed

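Members and lists were chosen with earlier results of these data known. The authors deposited synthesis, processing and degradation rates per labelled library as linear signal values of 0 or above, named for INSPEcT per the labels. Their scaling between libraries, use of spike-ins and time unit are not given in the sources used here. The authors also deposited limma tables of log2 changes, p-values with adjusted p-values, and score columns (not used further). The submitters' processing notes name cutadapt, Bowtie2, TopHat2, HISAT2 and limma and the builds mm10, dm6 and sacCer3, without roles. All per-sample columns were mapped (0 left over).

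Rates were log2 transformed without a pseudocount, 1 rate at a time, for genes that had a positive value in each of the 4 labelled libraries, and compared by limma 3.58.1 in R 4.3.3 (lmFit, eBayes, two-sided), with Benjamini-Hochberg adjustment over all genes tested and a threshold of 0.05. The fit was tested on simulated data with the same spread for every gene. These had no shift between genotypes and no link between labelling times, so that test does not cover such features of the data. Labelling times pair the libraries by the labels; the 20 minus 60 min differences of the genotypes correlated across genes (Spearman's rho 0.652 for degradation, 0.735 for synthesis and processing). Named genes were, for each rate, the 8 largest rises and falls called and changed the same way at both times, or the 3 smallest p where fewer than 3 were called, a fixed set of neuronal and glial carriers, and genes without a knockout rate; others named were chosen after their values were seen. Some genes that the rule names are not reported here, though the counts include them. Classes follow family numbers, so Slc5a6 counts under sugar and Slc30a10 under zinc. Coordinates are from GENCODE M21 on GRCm38, and sequences from RefSeq on GRCm38.p6. Alternatives were the block, centring, both, quantile normalization, a filter at the 25th percentile of mean rates, a pseudocount at the 10th percentile, eBayes with a trend, the deposited tables and each library left out.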

Additional observations from a re-analysis of the deposited data

Results flagged for a closer look

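For 4 of the rates reported, the knockout was above wild type at one labelling time and below it at the other, with 1 library per genotype at each time; these differences were not tested. The synthesis rate of Slc1a1 differed by 0.0700 at 20 min and -0.21 at 60 min on the log2 scale, that of Slc38a1 by 0.19 and -0.09, and that of Slc30a10 by 0.0696 and -0.03. The processing rate of Slc38a1 differed by 0.26 at 20 min and -0.02 at 60 min. Of the 81 genes with a synthesis rate in every labelled library, 40 had opposite signs at the labelling times, beside 2513 of all 5794 genes.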

How the results depend on the processing

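The number of family genes called for degradation, 19, was 1 after centring, 8 with quantile normalization, 30 with a pseudocount, 41 with the replicate block, 30 with the block and centring, 34 in the authors' deposited table, and 0 to 13 when 1 library was left out; with a trend it was 25 and with the filter 19 of 54. The fits without 1 library were planned for their values only; their tests were added after seeing the data and assume that the lone library varies like the other genotype. The median degradation change, 0.87, was 0.00939 after centring with or without the block, 0.60 with a pseudocount, 0.13 with quantile normalization, 0.68 in the deposited table and 0.52 to 0.95 when 1 library was left out. For processing, 18 passed with the block, 14 with the block and centring, and 0 to 3 when 1 library was left out (Slc12a4 without either knockout library, and Slc30a10 and Slc4a3 without the 20 min one), and the median of -0.35 became 0.00171 after centring with or without the block and 0.0426 with quantile normalization; it was -0.18 in the deposited table and -0.34 to -0.17 when 1 library was left out, the latter without the knockout 60 min library. The replicate block changed no synthesis call.

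Signs reversed for rates that were not called in the fit without block or centring. With the block and centring together, the degradation rates of Slc16a1, Slc30a1 and Slc38a1 were called lower. Slc30a1 and Slc32a1 synthesis were 0.12 and 0.0112 with quantile normalization. With 1 library left out, degradation changes ran from -1.07 to 0.15 for Slc16a1, -0.67 to 0.12 for Slc30a1 and -0.60 to 0.0316 for Slc38a1. Synthesis changes ran from -0.39 to 0.57 for Slc16a1, -0.77 to 0.10 for Slc17a6, -0.40 to 0.26 for Slc1a1, -0.15 to 0.34 for Slc2a3, -0.49 to 0.25 for Slc30a1, -0.36 to 0.27 for Slc32a1 and -0.27 to 0.37 for Slc38a1. Processing changes ran from -0.20 to 0.44 for Slc38a1. The cause of these differences was not tested. With no read counts, what depth limits is unknown.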

Other observations

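The authors' deposited table also tested 7 family genes whose rates were not complete in the 4 libraries. In the authors' deposited table, the chloride importer gene Slc12a2 had a log2 change in degradation rate of -2.40 (adjusted p = 0.0195) and the small neutral amino acid carrier gene Slc7a10 one of 4.26 (adjusted p = 0.0127). Slc7a10 had a degradation rate in the 60 min libraries only, 0.0128 in wild type and 0.534 in the knockout, and Slc12a2 had no knockout rate at 20 min. Slc31a2, with the largest rise in the fit above, has no adjusted p in that table.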
